A study of Rattus norvegicus with 12 samples.

Results

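The Hippo pathway was followed through 10 genes of adult rat ventricular myocytes (ARVMs) overexpressing the nuclear receptor NR4A2. The rule that defines them uses gene names and no measured value, although the group was proposed with earlier results of these data known. They encode the kinases Stk3, Lats1, and Lats2, the scaffold protein Amotl2, the transcriptional coactivators Yap1 and Wwtr1 (TAZ), the DNA-binding factors Tead1 and Tead4, and the secreted proteins Ctgf and Cyr61. Of these, 9 were matched among 17301 gene names, each with 1 transcript, and all 9 were among the 10950 genes tested. Tead4 was matched neither by name nor by RefSeq accession and was not analysed here.

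ARVMs from Sprague Dawley rats were transduced at 50 MOI with Ad-GFP, an adenovirus encoding enhanced green fluorescent protein, or with Ad-h-NR4A2, an adenovirus carrying human NR4A2 cDNA behind the CMV promoter. RNA was collected 48 h later from 6 samples per group, numbered 24 to 29 in both groups. The study describes 6 independent experiments with cells of different rats. The CMV promoter is not restricted to myocytes, so any other cell in the dish could also express the transgene. Both groups were kept on laminin in medium with albumin and without serum. The medium of both held 2,3-butanedione monoxime, an inhibitor of myosin and thus of contraction. The age of the rats was not given in the sources used here.

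In the Hippo pathway, Stk3 (MST2) and its paralog Stk4 (MST1) activate the kinases Lats1 and Lats2. These phosphorylate the coactivators Yap1 and Wwtr1, which keeps them out of the nucleus. Unphosphorylated Yap1 and Wwtr1 bind TEAD factors on DNA and raise transcription of target genes, of which Ctgf, Cyr61, and Ankrd1 are the most widely used readouts. Lats2 and Amotl2 are both regulators of the pathway and targets of it. In the heart the pathway is known for limiting cardiomyocyte proliferation and organ size. Most of this regulation acts on phosphorylation and location of proteins, which RNA sequencing does not measure.

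Values are FPKM, the fragments on a transcript per kilobase of length, scaled by the depth of each library, so that levels of different genes can be set side by side. The samples held 18800000 to 28000000 fragments in the Ad-GFP group and 21600000 to 27300000 in the Ad-h-NR4A2 group. Nr4a2 itself ranged from 0.626 to 1.40 FPKM with Ad-GFP and from 445 to 592 with Ad-h-NR4A2, as the labels of all 12 samples have it; fragments of the human transgene and of the rat gene cannot be told apart in this value. The summed level of 6 cardiomyocyte markers was 17091 to 22116 FPKM with Ad-GFP and 15357 to 18217 with Ad-h-NR4A2. Of these, 2 were called lower, Myh7 and Pln. Myh6 (1152 to 781 FPKM, limma adjusted p = 1.14e-04) and Tnnt2 (7189 to 5992 FPKM, 0.00477) were lower by less than 1.5-fold. Actn2 was higher (693 to 808 FPKM, limma adjusted p = 0.00344), also by less than 1.5-fold, and Tnni3 did not pass (0.119). The sum of 8 fibroblast markers was 9.08 to 30.8 and 5.95 to 27.3 FPKM, with Col3a1 lower and Col1a2 listed at 0 in every sample. Of 6 endothelial markers none was called, and their sums were 6.95 to 21.4 and 5.90 to 20.7 FPKM. The sum of 6 smooth muscle or pericyte markers was 11.7 to 24.3 and 8.78 to 21.0 FPKM, with Myh11 lower. The sum of 6 macrophage or leukocyte markers was 7.04 to 18.0 FPKM with Ad-GFP, and 39.1 to 50.5 after Ad-h-NR4A2. In that list Csf1r (10.1 to 40.2 FPKM) and Cd14 (0.222 to 1.19) were called higher, while group means were 0.463 and 0.482 for Cd68 and 0.0258 and 0.0218 for Ptprc. The part of these markers in the results that follow was not tested.

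A gene was called differentially expressed at an adjusted p below 0.05 (limma, Benjamini-Hochberg adjustment over all genes tested) together with group means that differed at least 1.5-fold. Log2 fold changes are those of FPKM + 0.1, Ad-h-NR4A2 against Ad-GFP, and understate the change of genes with low FPKM. Of the 9 genes, 3 were called: Cyr61 was higher, and Tead1 and Amotl2 were lower. Among all genes tested 15.2% were called, 7.94% higher and 7.24% lower. By the adjusted p alone 6 of 9 passed, with Yap1, Wwtr1, and Lats2 added, all higher and all below the 1.5-fold limit, against 40.9% of all genes. In 4 of the 9, Yap1, Tead1, Cyr61, and Amotl2, the values of the groups did not overlap, against 21.5% of all genes. The median log2 fold change of the 9 was 0.11 and the median size of change 0.35, against -0.02 and 0.20 over all genes. As the cultures are bulk samples, fewer cells of a type and less RNA per cell cannot be told apart in any of these values.

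**Figure D1:**
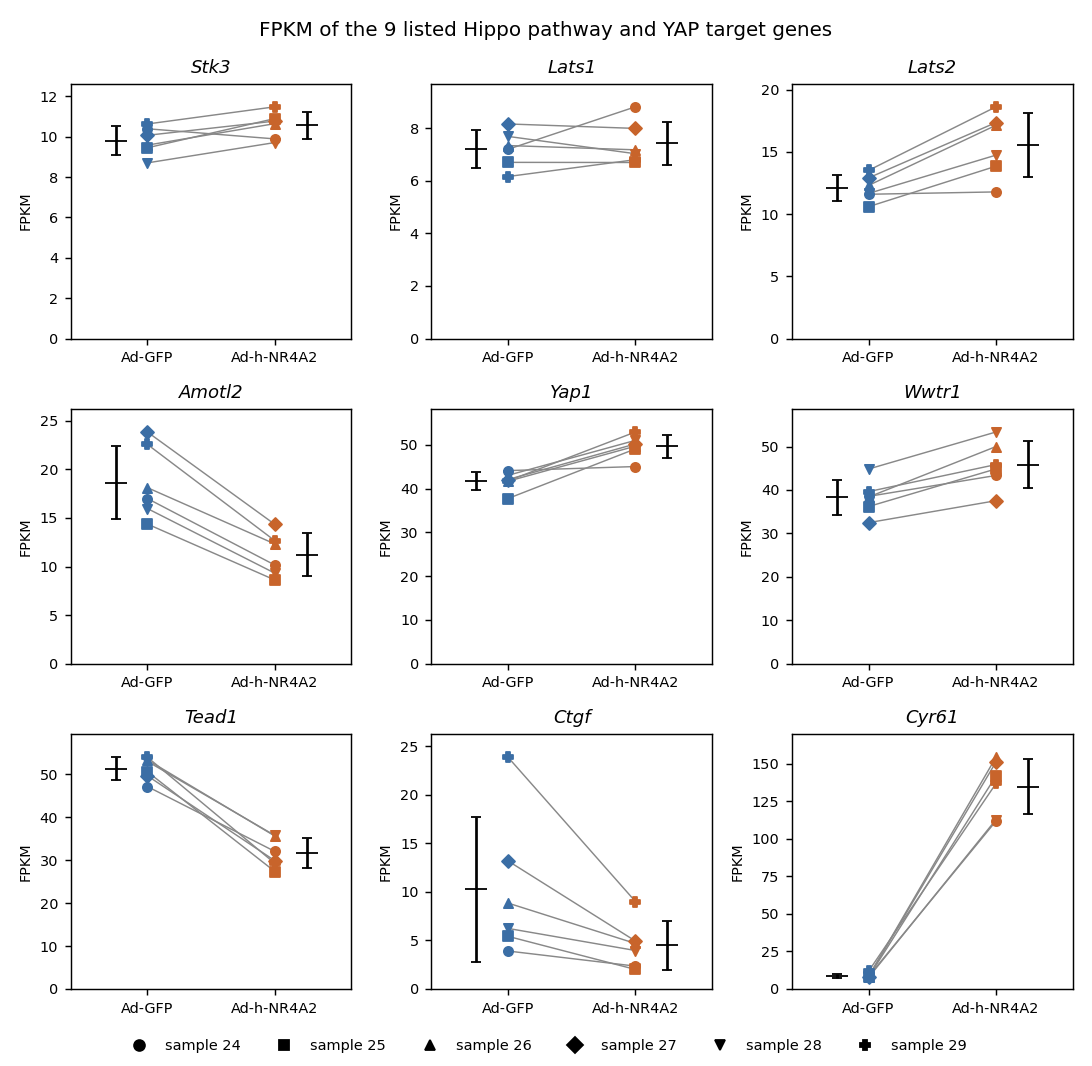
FPKM of the 9 genes in each sample, with Ad-GFP in blue and Ad-h-NR4A2 in orange, 1 marker shape per sample number and gray lines between same-numbered samples; bars beside the points give mean ± SD (n = 6), and every axis starts at 0. Cyr61 went from 8.64 to 135 FPKM while Ctgf, Tead1, and Amotl2 were lower with Ad-h-NR4A2 in each of the 6 pairs.

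**Figure D2:**
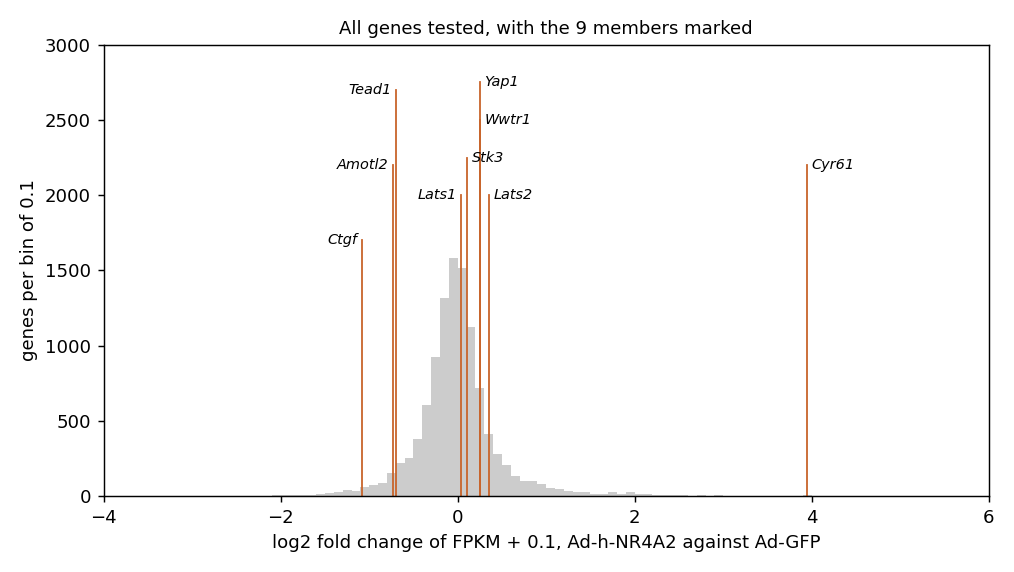
Histogram of the log2 fold changes of the 10950 genes tested, in bins of 0.1, with the 9 genes as orange lines whose heights carry no value. Cyr61 stands at 3.95, Ctgf, Amotl2, and Tead1 stand between -1.08 and -0.70, and the other 5 lie between 0.04 and 0.35, while 5 genes lie right of the axis end at 6.

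Cyr61 and Ctgf are close relatives of the CCN family of secreted matrix proteins and are usually read together as YAP targets. Here Cyr61 rose, and Ctgf was lower in every pair without passing the unpaired test. Cyr61 (CCN1; Rn5 chr2:270055954-270058912) had a lowest, median, and highest FPKM of 7.56, 8.22, and 11.7 with Ad-GFP. With Ad-h-NR4A2 these were 112, 139, and 154.5. The lowest Ad-h-NR4A2 sample was thus far above the highest Ad-GFP sample, number 29, and the groups were widely separated. The mean rose from 8.64 ± 1.54 to 135 ± 18.5 FPKM (SD, n = 6), a ratio of 15.6. The log2 fold change was 3.95 (SE 0.112, 95% interval 3.71 to 4.19, limma adjusted p = 3.35e-11). The exact two-sided permutation test gave p = 0.00216, the smallest that 6 against 6 samples allow. A single Ad-GFP library held 269 to 599 Cyr61 fragments, and a single Ad-h-NR4A2 library 4402 to 7070.

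Ctgf (CCN2; Rn5 chr1:23331545-23334660) had a lowest, median, and highest FPKM of 3.91, 7.55, and 23.9 with Ad-GFP. After Ad-h-NR4A2 transduction they were 2.00, 4.32, and 9.01. The groups overlapped, since sample 29 with Ad-h-NR4A2 was above all Ad-GFP samples other than 27 and 29. Mean FPKM was 10.3 ± 7.44 in the Ad-GFP group and 4.49 ± 2.52 in the Ad-h-NR4A2 group (SD, n = 6). The log2 fold change of -1.08 (SE 0.432, 95% interval -2.01 to -0.14) did not pass the unpaired test (limma adjusted p = 0.0622; exact permutation p = 0.0563). Ctgf was lower with Ad-h-NR4A2 in 6 of 6 same-numbered pairs, by log2 differences from -1.40 to -0.64. When the sample number entered the fit as replicate block, the log2 fold change kept its value with an SE of 0.118, and Ctgf passed (limma adjusted p = 5.10e-05), which made 4 of the 9 genes called. Sample 29 was the highest for Ctgf in both groups, so that most of the unpaired spread lay between the numbers and not within the pairs. Ad-GFP sample 29 also had the second highest sum of fibroblast markers of its group, 23.7 FPKM. The highest sums were in sample 25 of both groups, at 30.8 and 27.3 FPKM, where Ctgf was at 5.42 and 2.00 FPKM. Of that list Col3a1 was called lower with Ad-h-NR4A2, and the part of fibroblasts in the Ctgf values was not tested.

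The level of Cyr61 was close to that of Ctgf in Ad-GFP cells and far above it after Ad-h-NR4A2. The Cyr61 to Ctgf ratio of FPKM had a lowest, median, and highest value of 0.491, 1.07, and 2.11 with Ad-GFP. In the Ad-h-NR4A2 group they were 15.2, 31.8, and 70.8. The sum of both genes was 12.2 to 35.6 FPKM with Ad-GFP and 114 to 159 with Ad-h-NR4A2. This ratio and those given further on were chosen after the values were seen and were not tested.

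**Figure D3:**
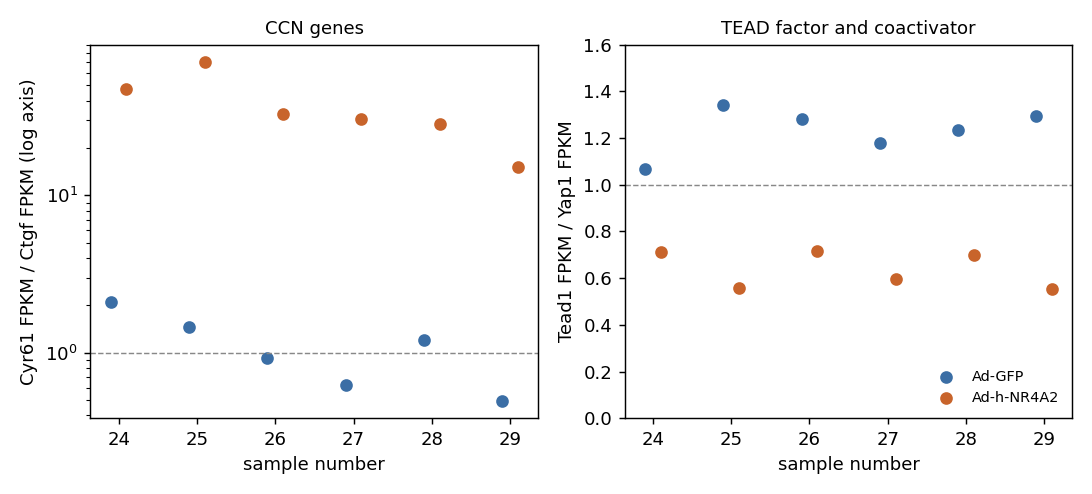
Ratios of FPKM by sample number, with Ad-GFP in blue and Ad-h-NR4A2 in orange: Cyr61 to Ctgf on a log axis (left) and Tead1 to Yap1 on a linear axis (right), with a dashed line at equal levels. The Cyr61 to Ctgf ratio was 0.491 to 2.11 with Ad-GFP and 15.2 to 70.8 with Ad-h-NR4A2, and Tead1 to Yap1 was 1.07 to 1.34 and 0.553 to 0.717.

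The 250 bases upstream of the start sites of Ctgf, Cyr61, and Amotl2 are shown because these are the 3 pathway targets of the group with an annotated window, and TEAD factors are the route by which Yap1 and Wwtr1 reach such targets. They are read 5′ to 3′ on the strand of the gene from RefSeq (GRCr8), a later assembly than that of the FPKM tables. Capitals mark GGAATG, the core letters bound by TEAD factors, or its reverse complement CATTCC. The windows are chr1:22624615-22624864 (minus strand) for Ctgf, chr2:237225690-237225939 (minus strand) for Cyr61, and chr8:112182376-112182625 (plus strand) for Amotl2.
Ctgf: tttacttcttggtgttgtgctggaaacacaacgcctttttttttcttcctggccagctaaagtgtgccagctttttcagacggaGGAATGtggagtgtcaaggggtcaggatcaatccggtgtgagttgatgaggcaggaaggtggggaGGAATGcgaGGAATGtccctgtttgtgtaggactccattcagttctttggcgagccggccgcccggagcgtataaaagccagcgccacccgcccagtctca
Cyr61: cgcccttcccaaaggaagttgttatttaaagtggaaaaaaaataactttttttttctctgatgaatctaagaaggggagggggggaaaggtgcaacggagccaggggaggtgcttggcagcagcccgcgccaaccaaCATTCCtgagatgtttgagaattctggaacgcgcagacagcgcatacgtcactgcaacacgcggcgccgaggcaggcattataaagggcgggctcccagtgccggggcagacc
Amotl2: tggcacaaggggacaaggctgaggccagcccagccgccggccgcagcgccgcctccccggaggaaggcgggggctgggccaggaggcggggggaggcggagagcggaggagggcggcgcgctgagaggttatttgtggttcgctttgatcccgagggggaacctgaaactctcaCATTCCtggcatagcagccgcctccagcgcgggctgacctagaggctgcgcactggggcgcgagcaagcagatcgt
In the Ctgf window these letters stand 3 times, at -166 to -161, -101 to -96, and -92 to -87 from the start site. Cyr61 had 1 match at -113 to -108 and Amotl2 1 at -76 to -71, both on the opposite strand. Of these 3 genes, Amotl2 fell, Cyr61 rose, and Ctgf had the lower mean with Ad-h-NR4A2. A window was found for 6 of the 9 genes, and 4 of these 6 held the letters, Yap1 included (1 match, -116 to -111) and Wwtr1 and Lats1 not. Tead1, Lats2, and Stk3 had no entry. Of all 33469 rat promoter windows of the same length, 12.1% held at least 1 match and 0.0807% at least 3. The NBRE, the element AAAGGTCA (reverse TGACCTTT) that NR4A receptors bind as monomers, was in 0 of the 6 windows and in 1.24% of all windows. A match is a run of letters and not a measured binding site, and a window without a match tells nothing about binding elsewhere.

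Genes with a pattern most like each of the 2 CCN genes were sought among 8999 genes with a mean of at least 1 FPKM, by the smallest mean absolute difference of centred log2(FPKM + 0.1) over the 12 samples. Nearest to Cyr61 were Fhl1, a LIM domain protein of striated muscle, with a difference of 0.162, Rhpn1, a rho-binding protein, with 0.181, and Cd55, an inhibitor of complement on the cell surface, with 0.198. Mean FPKM of Fhl1 went from 96.2 to 1587, that of Rhpn1 from 0.368 to 7.94, and that of Cd55 from 3.29 to 49.9. Fhl1 has 5 transcripts in the tables, and the value is that of the most abundant. Nearest to Ctgf were S100a4, a calcium-binding protein (difference 0.275), Plcd4, a phospholipase C (0.301), and Ifitm3, an interferon-induced membrane protein (0.337). Mean FPKM of S100a4 was 163 in Ad-GFP samples and 72.3 in Ad-h-NR4A2 samples, that of Plcd4 1.64 and 1.05, and that of Ifitm3 34.2 and 19.0. All 3 shared with Ctgf a highest value in sample 29 of both groups, which a search by likeness over these same samples favors.

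The coactivators and their DNA-binding partner shifted in opposite directions. Yap1 (Rn5 chr8:6134181-6202218) had a lowest, median, and highest FPKM of 37.8, 41.9, and 44.1 with Ad-GFP. With Ad-h-NR4A2 these were 45.1, 50.0, and 53.0. All Ad-h-NR4A2 samples lay above all Ad-GFP samples, though in pair 24 the values were 44.1 and 45.1. The mean rose from 41.8 ± 2.17 to 49.7 ± 2.63 FPKM (SD, n = 6), a ratio of 1.19 (log2 fold change 0.25, 95% interval 0.15 to 0.35, limma adjusted p = 9.10e-04, exact permutation p = 0.00216).

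Wwtr1 (TAZ; Rn5 chr2:166985078-167101346), the paralog of Yap1, had a lowest, median, and highest FPKM of 32.5, 38.4, and 44.8 with Ad-GFP. After Ad-h-NR4A2 transduction they were 37.5, 45.3, and 53.3. The groups overlapped, but within each of the 6 pairs the Ad-h-NR4A2 sample was higher. The mean rose from 38.3 ± 4.07 to 45.8 ± 5.48 FPKM (SD, n = 6), a ratio of 1.20 (log2 fold change 0.25, 95% interval 0.07 to 0.44, limma adjusted p = 0.0312, exact permutation p = 0.0303). This rise did not pass on the TPM scale (limma adjusted p = 0.0520), nor without any 1 of 6 of the samples (Ad-GFP 25, 26, or 27, or Ad-h-NR4A2 26, 28, or 29), where the limma adjusted p was 0.0507 to 0.0694. With the replicate block Wwtr1 passed (SE 0.033, limma adjusted p = 1.46e-04). The Yap1 to Wwtr1 ratio was 0.961 to 1.30 with Ad-GFP and 0.957 to 1.34 with Ad-h-NR4A2.

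Tead1 (Rn5 chr1:184473372-184683039), the TEAD factor with the highest FPKM of those listed here, had a lowest, median, and highest FPKM of 47.2, 51.9, and 54.0 with Ad-GFP. In the Ad-h-NR4A2 group they were 27.4, 31.0, and 35.8. Every Ad-h-NR4A2 sample was well below every Ad-GFP sample. The mean fell from 51.3 ± 2.64 to 31.7 ± 3.47 FPKM (SD, n = 6), which is 1.62-fold lower (log2 fold change -0.70, 95% interval -0.85 to -0.55, limma adjusted p = 2.87e-06, exact permutation p = 0.00216). Tead1 transcripts were thus above Yap1 transcripts per length in every Ad-GFP sample (ratio 1.07 to 1.34) and below them in every Ad-h-NR4A2 sample (0.553 to 0.717). The other TEAD factors listed, Tead2 (0.423 and 0.276 FPKM, limma adjusted p = 0.0719) and Tead3 (7.14 and 7.75, limma adjusted p = 0.218), did not pass, and they are named after their values were seen. The sum of Tead1, Tead2, and Tead3 was 54.4 to 62.8 FPKM with Ad-GFP and 35.0 to 44.3 with Ad-h-NR4A2, of which Tead1 made 86.0% to 88.8% and 77.4% to 83.0%.

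Among the kinases, Lats2 (Rn5 chr15:41788720-41828866), which phosphorylates Yap1 and Wwtr1, had a lowest, median, and highest FPKM of 10.6, 12.0, and 13.5 with Ad-GFP. With Ad-h-NR4A2 these were 11.8, 15.9, and 18.6. Only sample 24 with Ad-h-NR4A2 lay among the lower Ad-GFP values, and Lats2 was higher in 6 of 6 pairs. The mean rose from 12.1 ± 1.04 to 15.6 ± 2.57 FPKM (SD, n = 6), a ratio of 1.29 (log2 fold change 0.35, 95% interval 0.13 to 0.57, limma adjusted p = 0.0161, exact permutation p = 0.0152). Without pair 26 the limma adjusted p was 0.0585, and with the replicate block it was 8.56e-04.

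Its paralog Lats1 (Rn5 chr1:3480828-3514060) had a lowest, median, and highest FPKM of 6.16, 7.27, and 8.16 with Ad-GFP and of 6.70, 7.10, and 8.82 with Ad-h-NR4A2. The groups overlapped over most of their range, and 2 of 6 pairs were higher with Ad-h-NR4A2. No difference was detected (log2 fold change 0.04, 95% interval -0.15 to 0.23, limma adjusted p = 0.746). Stk3 (Rn5 chr7:73793742-74055204), the kinase upstream of both, had a lowest, median, and highest FPKM of 8.70, 9.83, and 10.6 with Ad-GFP and of 9.71, 10.7, and 11.5 with Ad-h-NR4A2. The groups overlapped, with 5 of 6 pairs higher, and the log2 fold change of 0.11 did not pass (95% interval -0.03 to 0.25, limma adjusted p = 0.199). Stk4, the paralog of Stk3, fell from 6.59 ± 0.304 to 4.52 ± 0.261 FPKM (SD, n = 6), a log2 fold change of -0.54 (limma adjusted p = 1.54e-05) whose ratio of 0.685 stayed inside the 1.5-fold limit. The Stk3 to Stk4 ratio was 1.32 to 1.64 with Ad-GFP and 2.03 to 2.65 with Ad-h-NR4A2.

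Amotl2 (angiomotin-like 2; Rn5 chr8:110604450-110619840) binds Yap1 and promotes its retention outside the nucleus. It had a lowest, median, and highest FPKM of 14.4, 17.6, and 23.8 with Ad-GFP. After Ad-h-NR4A2 transduction they were 8.61, 11.2, and 14.3. The groups touched without overlapping, since the highest Ad-h-NR4A2 sample, 27, was just under the lowest Ad-GFP sample, 25. Sample 27 was the highest of both groups and sample 25 the lowest of both. The mean fell from 18.6 ± 3.76 to 11.2 ± 2.22 FPKM (SD, n = 6), which is 1.66-fold lower (log2 fold change -0.73, 95% interval -1.04 to -0.41, limma adjusted p = 0.00143, exact permutation p = 0.00216).

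The remaining pathway genes came from 4 lists with 55 names, of which 44 were matched and 41 tested. The lists were chosen with earlier results of these data known. Of these 41, 8 rose and 8 fell, which is 39.0% called against 15.2% of all genes, and 28 passed the adjusted p alone, against 40.9% of all genes. Their median log2 fold change was -0.01, and 13 had groups that did not overlap, against 21.5% of all genes.

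Of 19 upstream regulators tested, 4 were called, 1 higher and 3 lower, which is 21.1% and near the 15.2% of all genes. By the adjusted p alone 13 of the 19 passed, against 40.9% of all genes. In 7 of the 19 the groups did not overlap, against 21.5% of all genes, and these differences in share were not tested. The 3 that fell were Frmd6, a FERM domain protein of the upstream complex (13.5 ± 1.97 to 7.16 ± 1.22 FPKM, log2 fold change -0.91, limma adjusted p = 4.01e-05), Ajuba, a LIM protein that restrains Lats kinases (4.28 to 2.57 FPKM, -0.72), and Wwc2, a KIBRA paralog (8.26 to 5.25 FPKM, -0.65). The 1 that rose was Fat4, an atypical cadherin, from 0.0920 to 0.285 FPKM (25 to 61 and 90 to 127 fragments, log2 fold change 1.01, and 0.23 with a pseudocount of 1), and it is named after its values were seen. Sav1, the scaffold of Stk3 and Stk4, rose slightly from 18.1 to 20.1 FPKM (log2 fold change 0.15, limma adjusted p = 0.0360). Sav1 was higher in 6 of 6 pairs and passed with the replicate block (limma adjusted p = 0.00255). It did not pass on the TPM scale (limma adjusted p = 0.0544) or after quantile normalization (0.0854). Nor did it pass without any 1 of 8 of the 12 samples (up to 0.0806), or without any 1 of 5 of the 6 pairs (up to 0.0976). Nf2 (merlin), which recruits Lats kinases to the membrane, was at 40.9 and 39.2 FPKM (log2 fold change -0.06, 95% interval -0.19 to 0.07, limma adjusted p = 0.438). Of the 3 TEAD and VGLL factors tested none was called, and Vgll4, a repressor of TEAD factors named after its values were seen, passed the adjusted p alone (8.44 to 9.83 FPKM, log2 fold change 0.22, limma adjusted p = 0.0364). Vgll2, a muscle cofactor of TEAD factors named after its values were seen, was not tested. It was listed at 0 in 4 of the 6 Ad-GFP samples and was at most 0.0957 FPKM in the others, while Ad-h-NR4A2 samples were at 0.256 to 0.835 FPKM.

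Of 17 other YAP and TAZ target genes tested, 6 rose and 4 fell. This is 58.8% called, against 15.2% of all genes, of which 7.94% were higher and 7.24% lower, and the difference in share was not tested. As the list was chosen with earlier results of these data known, its share cannot be read as a trait of YAP and TAZ targets. Ankrd1, a cardiac ankyrin repeat protein and the third common readout, had a lowest, median, and highest FPKM of 1391, 2103, and 3190 with Ad-GFP and of 2594, 3535, and 4991 with Ad-h-NR4A2. The groups overlapped, and all 6 pairs were higher with Ad-h-NR4A2 (log2 fold change 0.81, SE 0.190, limma adjusted p = 0.00389). Areg, a ligand of the EGF receptor, rose from 0.578 to 2.14 FPKM (log2 fold change 1.74, limma adjusted p = 1.76e-05) on 6 to 22 and 39 to 61 fragments, and with a pseudocount of 1 the log2 fold change was 0.99. Birc5 (survivin), of mitosis, rose from 0.533 to 1.59 FPKM (log2 fold change 1.34, limma adjusted p = 0.00155) on 5 to 14 and 8 to 35 fragments, in 5 of 6 pairs, and with a pseudocount of 1 the log2 fold change was 0.73. Nt5e (CD73), an ectonucleotidase, rose from 10.6 to 20.0 FPKM (log2 fold change 0.91, limma adjusted p = 0.0159). Nt5e did not pass without pair 26 (limma adjusted p = 0.0541) and passed with the replicate block (1.22e-05). The transcription factor Myc rose from 24.9 to 42.0 FPKM (log2 fold change 0.77, limma adjusted p = 1.86e-04).

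Of the targets that fell, F3 (tissue factor, which starts coagulation) had the largest log2 change of the 4, from 6.82 to 2.49 FPKM (log2 fold change -1.42, SE 0.079, limma adjusted p = 1.83e-08). Its groups did not overlap. Tgfb2, Nuak2, and Myof also fell, by log2 fold changes of -0.69, -0.86, and -0.71, and Fjx1 rose by 0.60. These 4 are named after their values were seen. Nuak2 (0.830 to 0.404 FPKM, on 32 to 74 and 20 to 36 fragments), Myof (1.09 to 0.617 FPKM), and Fjx1 (0.795 to 1.23 FPKM, on 20 to 58 and 40 to 76 fragments) were low, and their groups overlapped. Of the common readouts, Cyr61 and Ankrd1 were called higher, at 15.6 and 1.73 times the mean FPKM of the Ad-GFP group. Mean FPKM of Ctgf was 0.438 times as high, and Ctgf was lower in every pair. It did not pass the unpaired test (limma adjusted p = 0.0622), though it passed with the replicate block.

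The other CCN genes went in both directions. Of 4 listed, 2 were tested and both were called, against 15.2% of all genes, and 2 genes are too few to read a share. Both are named after their values were seen because their mean was below 1 FPKM. Nov (CCN3) rose from 0.0939 ± 0.0627 to 1.41 ± 0.463 FPKM (SD, n = 6; log2 fold change 2.96, limma adjusted p = 8.78e-07). It rests on 1 to 7 fragments per sample with Ad-GFP and 21 to 59 with Ad-h-NR4A2, and its log2 fold change was 1.12 with a pseudocount of 1 and 3.92 with one of 0.01. Wisp2 (CCN5), which lacks the C-terminal domain of the other family members, fell from 0.708 ± 0.116 to 0.292 ± 0.0990 FPKM (SD, n = 6; log2 fold change -1.07, limma adjusted p = 3.48e-04), on 19 to 35 and 5 to 18 fragments, with a log2 fold change of -0.40 at a pseudocount of 1. Wisp1 and Wisp3 were listed at 0 in 1 and 5 of the samples and were not tested.

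**Figure D4:**
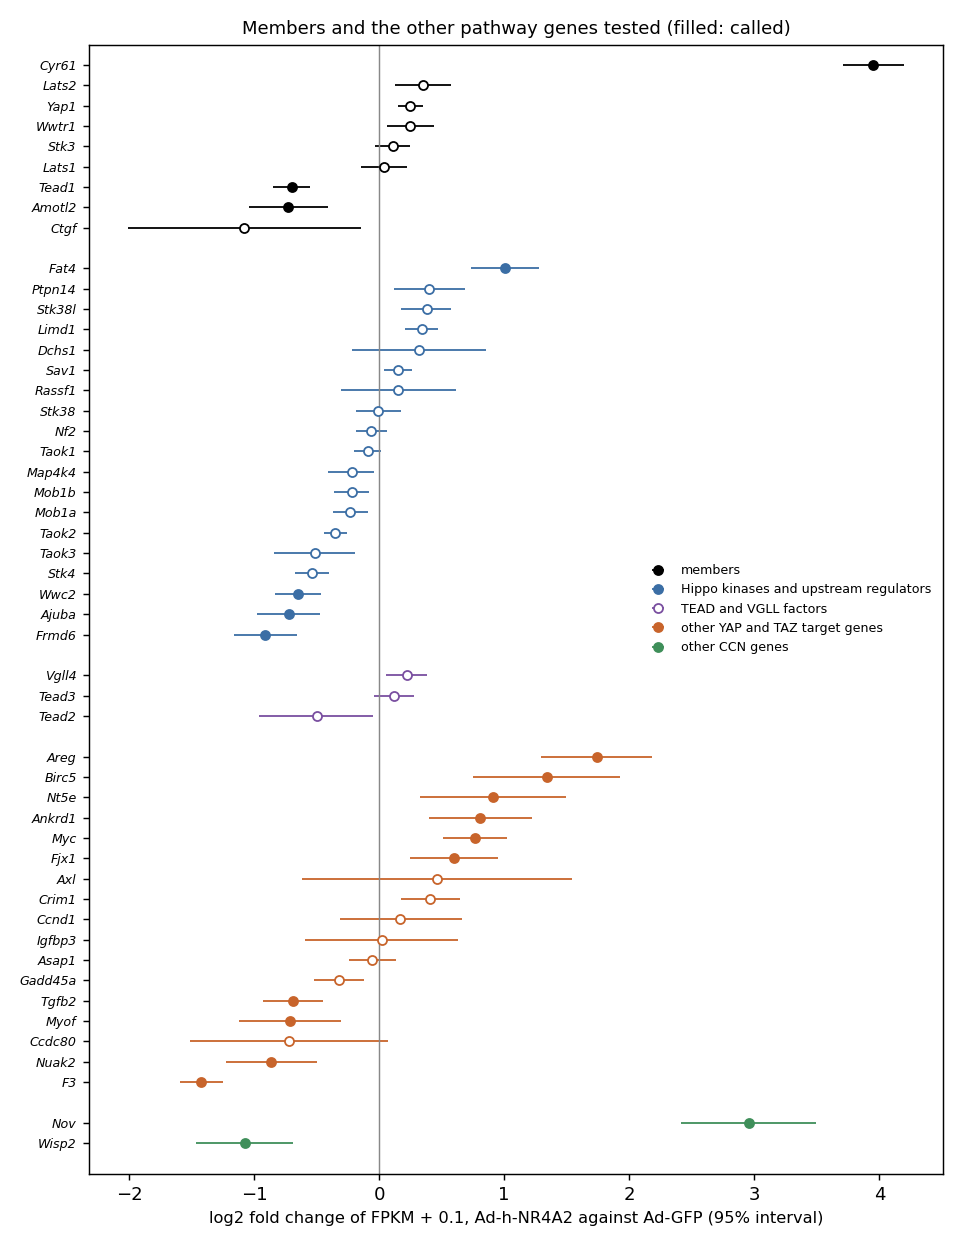
Log2 fold changes of FPKM + 0.1, Ad-h-NR4A2 against Ad-GFP, with 95% intervals from limma, for the 9 genes (black) and the 41 tested genes of the 4 pathway lists in color; filled points were called and open points were not. Cyr61 at 3.95 and Nov at 2.96 lie far right, and F3 at -1.42 is the lowest point, while the wide interval of Ctgf runs from -2.01 to -0.14.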

How the data were processed

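Stranded mRNA libraries of 12 ARVM cultures were sequenced as paired ends in 1 run. The authors used STAR with rat build Rn5 for alignment and deposited FPKM of 18752 RefSeq transcripts from Cufflinks, which are not counts. Groups came from the sample labels. Where a gene name had several transcripts, the most abundant stood for it, and only the 10950 genes with no sample at 0 were kept. Log2(FPKM + 0.1) was compared with limma 3.58.1 (lmFit, eBayes with trend) in R 4.3.3, unpaired as in the study, two-sided, with Benjamini-Hochberg adjustment. Single genes were also compared by an exact permutation test over all 924 splits. Figures were drawn with Matplotlib 3.10.9, and tables made with pandas 2.3.3, NumPy 2.4.6, and SciPy 1.17.1 in Python 3.11.15.

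FPKM values step by 1 fragment, and 99.28% to 99.88% of those worth 6 fragments or fewer in a sample were whole within 0.05, which gave the depth and the fragment numbers. These fragment numbers are estimates that rest on the fitted depth, and their spread over samples is not counting error alone. The fit was tested on simulated data first.

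Labels do not say what the sample numbers stand for. The deviations of same-numbered samples from their group means correlated in every pair (r = 0.347 to 0.623). The numbers were therefore taken as pairs where pairs are named and in the replicate block, which was an alternative. The main fit and the permutation test did not use the numbers. Their p-values therefore treat correlated samples as independent.

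Named were the 10 genes, Stk4, Sav1, Nf2, Ankrd1, Nr4a2, up to 6 called genes per pathway list with the largest change and a mean of at least 1 FPKM, and the 3 genes most like Ctgf and Cyr61. Other names are marked as chosen after their values were seen. The genes and the lists were chosen with earlier results of these data known. Alternatives were pseudocounts of 1 and 0.01, no filter, a mean of at least 1 FPKM, the TPM scale, quantile normalization, no trend, summed transcripts, every transcript by itself, a ratio of at least 2, each replicate left out, and, added after seeing the data, each pair left out.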

Additional observations from a re-analysis of the deposited data

Results flagged for a closer look

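Among 56 groups of 6 samples of named genes, 4 held a sample far from the others, and chance flags about 1 in 20 groups. Cyr61 was at 11.7 FPKM in Ad-GFP sample 29, with the nearest sample at 8.25 and a gap of 0.834 of the range. Birc5 was at 0.516 FPKM in Ad-h-NR4A2 sample 24, with the nearest at 1.67, and this pair was the 1 of 6 in which Birc5 was not higher. Fhl1, the gene most like Cyr61, was at 165 FPKM in the same Ad-GFP sample 29, with the nearest at 98.5. Rhpn1 was at 5.91 FPKM in the same Ad-h-NR4A2 sample 24, with the nearest at 8.12.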

How the results depend on the processing

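Tead1, Amotl2, Cyr61, and Yap1 kept direction and side of the adjusted p threshold under every alternative run. For the 9 genes together, 260 of the recomputed fold changes kept both, 12 lost the threshold, 4 gained it, and 3 reversed. With a ratio of at least 2 in place of 1.5, 803 of all genes were called (493 higher, 310 lower), 1 of the 9 genes (Cyr61), and 7 other pathway genes (4 higher, 3 lower), since fewer genes reach the higher ratio. The 3 reversals were of Lats1, whose log2 fold change was -0.004 without Ad-GFP replicate 29, -0.011 without Ad-h-NR4A2 replicate 24, and -0.010 without pair 24, with a range of -0.011 to 0.076 over single replicates left out. Leaving out 1 replicate gave 1542 to 1770 genes in all, 3 to 4 of the 9, 5 to 7 of the 9 by adjusted p alone, and 15 to 17 other pathway genes. Ctgf was the gene added: it passed without Ad-GFP replicate 24 (limma adjusted p = 0.0285), without Ad-h-NR4A2 replicate 29 (0.0268), and without pair 29 (0.0371), and the range over its alternatives was 5.10e-05 to 0.138. With the replicate block, 1825 genes were called, 4 of the 9, and 18 other pathway genes, and 7 of the 9 passed the adjusted p alone. Under the block Plcd4 and Ifitm3 also passed (limma adjusted p = 3.93e-04 and 1.75e-05), and of the 9 genes the call of Ctgf alone changed. Wwtr1 ranged over its alternatives from a limma adjusted p of 1.46e-04 to 0.102, and Lats2 from 8.56e-04 to 0.0585. S100a4 lost the threshold without 6 single replicates and kept it with the replicate block (limma adjusted p = 4.95e-07). Of the 5 Fhl1 transcripts, 1 by itself had a log2 fold change of 0.13 (limma adjusted p = 0.700). Scaling alternatives moved the median of all genes by at most 0.02 on the log2 scale. Nov, Birc5, Areg, Wisp2, and Fat4 were low in FPKM, so their log2 fold changes shrank with a pseudocount of 1 (limma adjusted p at most 0.00139). All of these but Fat4 also rest on few fragments in at least 1 group, while Fat4 held 25 to 61 with Ad-GFP and 90 to 127 with Ad-h-NR4A2.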

Other observations

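For several named genes the same sample number held the highest value in both groups. Sample 29 was the highest for Ctgf, Ankrd1 (3190 FPKM in the Ad-GFP group, 4991 FPKM in the other), and Nt5e (16.3 and 34.5 FPKM). It was also the highest for Lats2 and Stk3. The same held for S100a4, Plcd4, and Ifitm3, which were picked for likeness to Ctgf over these samples and so add no separate case. Of other targets, Myc was highest in sample 28 of both groups, and Areg and F3 in different samples of each. The share of all genes with such a match was not counted. Amotl2 was highest in sample 27 of both groups, and Wwtr1 was highest in sample 28 and lowest in sample 27 of both. Cyr61 was highest in sample 29 with Ad-GFP and in sample 26 with Ad-h-NR4A2. The order of the samples was noticed after the values were seen and was not tested, and the labels do not say what the numbers stand for.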
